A study of Homo sapiens with 6 samples.

Results

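The integrated stress response and its ATF4 target genes were examined as a set of 32 genes, chosen by name from the deposited table of 60605 genes, in which all 32 were found. Amino acid carriers were left out of the set. Of the 32, 30 had enough reads to be tested, among 14748 genes tested in all, and CBS and FGF21 had no reads in any library. With all 6 libraries none of the 30 passed edgeR's test between PUS1 knockdown and control cells, where 1.74% of all genes passed as higher and 0.841% as lower. DESeq2 called 5 higher and 1 lower of the 27 genes for which it gave an adjusted p, against 7.37% and 5.64% of all genes. Voom with sample weights called 6 and 2 of the 30, against 11.5% and 9.48%. It gave 1 control library, shControl replicate 2, a weight of 0.1012, where the other libraries had 0.7149 to 4.085. Its calls are therefore close to those of a fit without that library. In both the DESeq2 and the voom test the share called higher was above that of all genes and the share called lower was below it. That control library, shControl replicate 2, held less of most of these mRNAs than the other controls. When it was set aside, 6 of the 30 passed edgeR's test as higher after knockdown (ATF3, CEBPG, PPP1R15A, TRIB3, CARHSP1 and CTH), where 9.8% of all genes did. As lower, 2 passed (DDIT4 and PCK2, 6.67% of the 30), a share below the 8.79% of all genes. ATF4, DDIT3, ASNS and the serine and one-carbon enzymes did not pass.

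The study compared MDA-MB-231 cells, a mesenchymal-like triple-negative breast cancer line, carrying a control hairpin (shControl, 3 libraries) or a hairpin against PUS1 (shPUS1, 3 libraries). PUS1 is a pseudouridine synthase, an enzyme that converts uridine in tRNA and other RNAs to pseudouridine. The labels give both groups the same growth conditions and name no treatment. The hairpins against PUS1 were delivered by a lentiviral pLKO.1 vector with puromycin selection, the methods list more than one such hairpin, and they do not name the one carried by the sequenced cells. The labels call the replicates biological and do not say whether they came from separate infections, so p-values measure the spread between these libraries only.

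In the integrated stress response, kinases that sense amino acid shortage, unfolded protein in the endoplasmic reticulum, viral RNA or heme and mitochondrial stress phosphorylate the translation factor eIF2. General translation then falls while the mRNA of the transcription factor ATF4 is translated more. ATF4, usually paired with a C/EBP protein, switches on genes for amino acid synthesis and transport, further transcription factors and feedback inhibitors. ATF4 is controlled largely at translation, so its mRNA level is not a measure of its protein.

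ATF4 and C/EBP partners bind a composite element, and its core, TGATGNAA, was searched on both strands of the RefSeq promoter windows (GRCh38.p14, 250 bases before to 50 after each start). The matches are shown because they are the sequence the pathway is known to read. Of the 32 genes, 26 had a window and 8 of these held a match (30.8%), against 1217 of 27305 genes (4.46%). The set was chosen by name for known ATF4 targets, so a higher share follows from that choice and is no test. The 26 genes also had 47 windows, where the 27305 had 35116, and more windows per gene give more room for a match. The 30 bases around each match follow, 5′ to 3′ on the strand that reads the motif, with the match in capitals:
ATF3: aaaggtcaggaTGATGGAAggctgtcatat
CEBPG: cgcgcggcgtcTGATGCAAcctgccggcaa
JDP2: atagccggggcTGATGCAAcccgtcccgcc
CARHSP1: cctgcccctgcTGATGGAAcacaaaccaaa
CHAC1: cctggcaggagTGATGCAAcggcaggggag
ASNS: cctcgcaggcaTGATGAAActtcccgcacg
MTHFD1L: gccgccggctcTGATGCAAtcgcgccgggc
FGF21: ctcctcctcccTGATGCAAtcctggtgttt

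The ATF3 stretch lies at chr1:212565205-212565234, with the match 191 bases before the RefSeq start, and the CEBPG stretch at chr19:33374060-33374089, 42 bases before it. Those of JDP2 (chr14:75427995-75428024, 16 bases before) and MTHFD1L (chr6:150866346-150866375, 129 bases before) are also on the plus strand and in the direction of the gene. The ASNS stretch is on the minus strand in the direction of the gene, at chr7:97872458-97872487, 68 bases before its start. The stretches of CHAC1 (chr15:40953251-40953280, minus strand, 209 bases before), CARHSP1 (chr16:8867493-8867522, plus strand, 83 bases before) and FGF21 (chr19:48755459-48755488, minus strand, 54 bases before) read against the direction of the gene. All but ATF3, CARHSP1 and ASNS carried the form TGATGCAA. A match describes these letters only and is not a measured binding site, and the absence of a match says nothing about the factor.

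The libraries held 14241505 to 19625998 estimated counts, and 4.307% to 5.087% of these came from mitochondrially encoded genes. PUS1 was at 14.5, 27.5 and 12.1 CPM (counts scaled to a common library size) in shControl replicates 1, 2 and 3 and at 6.57, 5.47 and 5.37 CPM in shPUS1. Its log2 fold change, given throughout as shPUS1 relative to shControl, was −1.62 (SE 0.32, edgeR adjusted p = 0.0462) and −1.19 (SE 0.16, adjusted p = 0.00311) without shControl replicate 2. That replicate stood apart: across genes, Pearson's r of log2 CPM was 0.9505 and 0.9521 with the other controls, against 0.981 between those and 0.9872 to 0.9906 among shPUS1 libraries. Results are therefore given with and without it. The mesenchymal markers VIM, CD44, AXL, CAV1, MSN and SPARC were all detected, at a summed 5112 to 6393 CPM in shControl and 4122 to 4418 CPM in shPUS1. VIM and AXL passed edgeR's test as lower in shPUS1 without shControl replicate 2. With all libraries both passed as lower in DESeq2 (adjusted p = 0.033 and 0.0094) but not in edgeR (adjusted p = 0.0873 and 0.0623). The 9 luminal and epithelial markers summed to 60.41 to 80.36 CPM in shControl, 3 of them at 0 in every library of that group, and to 58.77 to 64.55 CPM in shPUS1, with 2 at 0. Most of each sum was ERBB2, at 54.4, 73.3 and 65.1 CPM in shControl and at 55.1, 51.1 and 52.2 CPM in shPUS1.

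A gene was called where its edgeR quasi-likelihood p, adjusted over all genes tested, was under 0.05. With all 6 libraries, 0 of the 30 genes were called higher, where 1.74% of all genes were, and 0 were called lower, where 0.841% were. With a fold of 2 required as well, 0 were called, where 0.881% and 0.475% of all genes were. At an unadjusted p under 0.05, 7 were higher and 3 lower, against 12.6% and 12.8% of all genes. DESeq2 called 5 higher and 1 lower of the 27 genes for which it gave an adjusted p, against 7.37% and 5.64% of all genes. Without shControl replicate 2, edgeR called 6 of 30 higher, where 9.8% of all genes were, and 2 lower (6.67%, against 8.79%). DESeq2 without that library (12.6% and 8.11% of all genes) and voom with sample weights on all libraries (11.5% and 9.48%) called the same 8. Voom gave that library a weight of only 0.1012, so this is not a separate check with all libraries. With a fold of 2 required in edgeR, only CTH was called higher and only DDIT4 lower, against 1.56% of all genes in each direction. With all libraries, in 13 of the 30 genes every shPUS1 library was above every shControl library (43.3%, against 18.8% of all genes). In DDIT4 and PCK2 every one was below (6.67%, against 17.3%). The 13 include near ties, such as CHAC1 (9.96 against 9.95 CPM) and SHMT2 (both 176 CPM when rounded). shControl replicate 2 was the lowest library in 73.3% of the 30 genes and 32.1% of all genes, which eases such a rise and hinders such a fall. Without that library 14 of the 30 were above (46.7%, against 3775 of 15130 genes) and 4 below (13.3%, against 3897 of 15130). For a single gene, an exact two-sided permutation test of 3 libraries against 3 cannot give a p below 0.1. In bulk RNA, a change in the share of cells expressing a gene and a change in mRNA per cell cannot be told apart.

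The median log2 fold change of the 30 genes was 0.35 with all 6 libraries, where that of all genes was −0.03, and 0.11 without shControl replicate 2, where that of all genes was −0.02. In both comparisons 20 of the 30 genes had a log2 fold change above 0 (66.7%, against 47.3% of all genes with all libraries and 47.8% without that one). The plot of the set by library shows the values behind both medians.

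**Figure D1:**
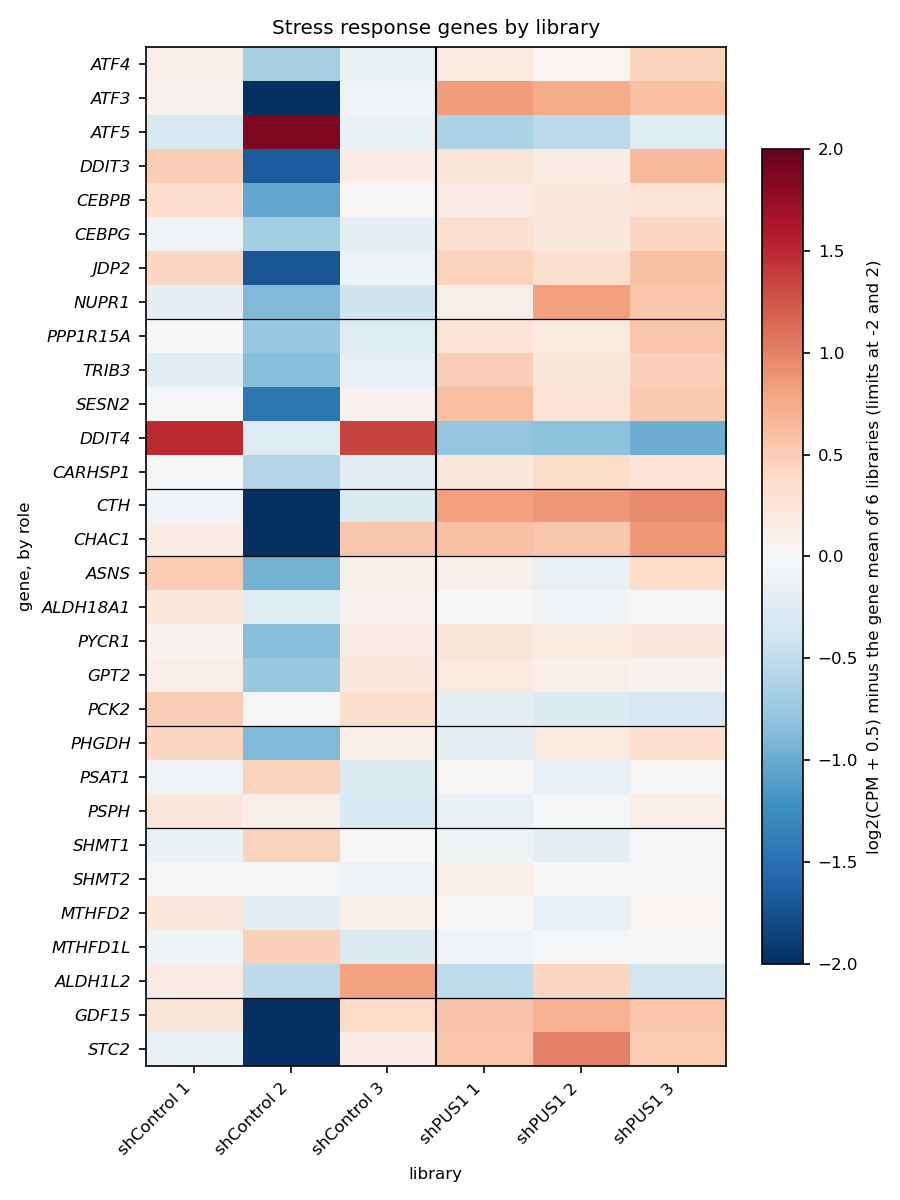
Each row is 1 of the 30 tested genes, grouped by role with horizontal lines, and each column a library. Colour gives log2(CPM + 0.5) minus the gene's mean over the 6 libraries, on a scale limited at −2 and 2. The shControl replicate 2 column is blue for most genes and dark red for ATF5, while DDIT4 is red in the other shControl libraries and blue in all 3 shPUS1 libraries.

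Low levels in shControl replicate 2 ran through much of the set. That library was the lowest of the 6 in 22 of the 30 genes (73.3%), whereas it was the lowest in 32.1% of all genes. It was the highest in 4 of them, ATF5, PSAT1, SHMT1 and MTHFD1L (13.3%, against 34.4% of all genes). The median log2 ratio of replicate 2 to the mean of replicates 1 and 3, computed on CPM + 0.5, was −0.80 in the 30 genes (quartiles −1.64 and −0.41) and 0.01 in all genes. For shControl replicate 1 against the other controls the same median was 0.39, with −0.03 in all genes, and for replicate 3 it was 0.17, with 0.00 in all genes. Both of these ratios have replicate 2 in their denominator, so its low values raise them.

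The mean CPM of shControl replicates 1 and 3 was 13.9 times that of replicate 2 for CHAC1, 10.8 times for GDF15 and 6.86 times for STC2. For CTH, ATF3, JDP2 and DDIT3 it was 5.13, 4.83, 4.28 and 4.17 times. ATF4 and TRIB3 both had a ratio of 1.59. In the opposite direction, ATF5 was 4.57 times higher in replicate 2. These ratios compare single libraries within a group and carry no test. Also in shControl replicate 2, the nucleotide synthesis enzyme TYMS, chosen after its values were seen, stood at 506 CPM, where the other shControl libraries had 259 and 215 CPM. Its part in the low stress response levels was not tested.

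**Figure D2:**
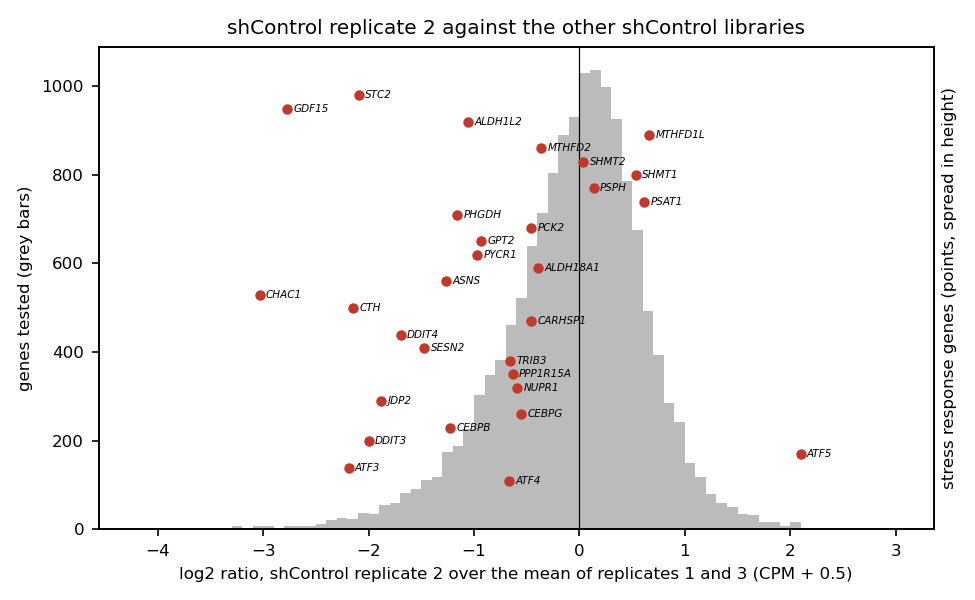
The horizontal axis is the log2 ratio of shControl replicate 2 to the mean of shControl replicates 1 and 3, on CPM + 0.5. Grey bars count all 14748 genes tested and red points are the 30 stress response genes, spread in height only for legibility. Most points lie left of 0, with CHAC1, GDF15, ATF3, CTH and STC2 farthest left and ATF5 farthest right.

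Among the transcription factors, ATF4 itself (ENSG00000128272, chr22:39519695-39522683) was at 363, 210 and 304 CPM in shControl replicates 1, 2 and 3 and at 378, 341 and 451 CPM in shPUS1. The lowest shPUS1 library lay below the highest shControl library, so the groups overlapped. The log2 fold change was 0.42 (SE 0.21, edgeR adjusted p = 0.252) with all libraries and 0.22 without shControl replicate 2 (95% interval −0.09 to 0.53, adjusted p = 0.291). ATF4 had the highest mean level per length of the set, 130 FPKM (reads scaled to exonic length and to the library's total), followed by PPP1R15A at 95.5 and CEBPB at 89.2 FPKM.

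ATF3 (ENSG00000162772, chr1:212565334-212620777), a stress-induced repressor and activator of the same family, was at 33.6, 6.66 and 30.7 CPM in shControl and at 57.6, 54.2 and 49.1 CPM in shPUS1. All shPUS1 libraries were above all shControl libraries, of which replicate 2 was far below the rest. The mean was 53.6 ± 4.29 CPM in shPUS1 (SD, n = 3) and 23.7 ± 14.8 CPM in shControl (SD, n = 3). The log2 fold change was 1.18 (SE 0.49, adjusted p = 0.183), and without shControl replicate 2 ATF3 rose 1.66-fold (log2 0.73, SE 0.11, adjusted p = 0.00488).

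CEBPG (ENSG00000153879, chr19:33373685-33382686), a C/EBP partner of ATF4, was at 72.5, 47.2 and 66.3 CPM in shControl and at 94.4, 87.9 and 101 CPM in shPUS1. Here too the groups did not overlap. Its log2 fold change was 0.61 (SE 0.17, adjusted p = 0.0922) with all libraries, and it rose 1.35-fold without shControl replicate 2 (log2 0.44, SE 0.10, adjusted p = 0.0237). ATF3 and CEBPG both hold the element shown above within their promoter windows.

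DDIT3 (ENSG00000175197, chr12:57516588-57521737) encodes CHOP, the factor that carries prolonged stress toward cell death. It was at 40.4, 8.65 and 31.8 CPM in shControl and at 34.1, 31.6 and 44.9 CPM in shPUS1. Apart from shControl replicate 2 the ranges of the groups overlapped. The log2 fold change was 0.46 (SE 0.47, adjusted p = 0.564), and 0.02 without that library, with a 95% interval of −0.37 to 0.41 that leaves out a doubling. Of the DDIT3 exonic bases, 39.63% overlap other genes, which are AC022506.1 on the same strand and MARS1 and MBD6 on the other, and no source used here says whether counting used strand.

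The other transcription factors were CEBPB, JDP2, ATF5 and NUPR1. CEBPB, another C/EBP partner, had a log2 fold change of 0.33 with all libraries and 0.02 without shControl replicate 2, and JDP2, a repressor of the AP-1 family, had 0.73 and 0.29. None passed the test. ATF5, a factor close to ATF4 that is linked to mitochondrial stress, was at 5.3, 26.1 and 6.13 CPM in shControl and at 4.17, 4.54 and 5.61 CPM in shPUS1. Its log2 fold change of −1.38 (SE 0.58, adjusted p = 0.189) was −0.26 (SE 0.20, adjusted p = 0.381) without shControl replicate 2, the single high library. Of its exonic bases 23.7% overlap other genes, among them NUP62 on the opposite strand, which was also highest in shControl replicate 2 (152 CPM, where the other 5 libraries had 81.0 to 94.1 CPM). The part of NUP62 reads in the ATF5 counts was not tested. NUPR1, a small stress-induced chromatin protein, rested on 1 to 6 counts per shControl library and 11 to 24 counts per shPUS1 library, and its log2 fold change of 1.27 without shControl replicate 2 did not pass (adjusted p = 0.0834).

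Of the 5 feedback and growth control genes, 3 rose and 1 fell without shControl replicate 2, where 9.8% and 8.79% of all genes did. PPP1R15A (ENSG00000087074, chr19:48872421-48876058) encodes GADD34, which brings a phosphatase to eIF2 and so ends the response. It was at 282, 166 and 235 CPM in shControl and at 340, 322 and 414 CPM in shPUS1, with no overlap between groups. With all libraries the log2 fold change was 0.66 (SE 0.20, adjusted p = 0.107), and PPP1R15A rose 1.38-fold without shControl replicate 2 (log2 0.47, SE 0.14, adjusted p = 0.0463).

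TRIB3 (ENSG00000101255, chr20:362835-397559), a pseudokinase that restrains ATF4 and AKT, was at 34.9, 22.2 and 35.9 CPM in shControl and at 57.0, 47.7 and 56.3 CPM in shPUS1. Every shPUS1 library was above every shControl library. The log2 fold change was 0.79 (SE 0.20, adjusted p = 0.072), and TRIB3 rose 1.51-fold without shControl replicate 2 (log2 0.59, SE 0.11, adjusted p = 0.0109). CARHSP1 (ENSG00000153048, chr16:8852942-8869012), a cold shock domain protein that binds RNA, was at 89.2, 60.7 and 78.2 CPM in shControl and at 108, 118 and 111 CPM in shPUS1. It too showed no overlap, and rose 1.33-fold without shControl replicate 2 (log2 0.42, SE 0.10, adjusted p = 0.0246, against 0.0884 with all libraries).

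DDIT4 (ENSG00000168209, chr10:72273919-72276036) encodes REDD1, an inhibitor of mTORC1 that is also induced by hypoxia and glucocorticoids. It was at 292, 85.7 and 264 CPM in shControl and at 59.4, 58.3 and 52.2 CPM in shPUS1. All shPUS1 libraries were below all shControl libraries, although replicate 2 of shControl was closer to them than to its own group. With all libraries the log2 fold change was −1.92 (SE 0.40) and the adjusted p 0.0521, just short of the threshold, while DESeq2 gave an adjusted p of 1.64e-05. Without shControl replicate 2 it fell 4.93-fold (log2 −2.30, SE 0.10, edgeR adjusted p = 8.51e-05), the widest called difference in the set. Of its exonic bases, 41.16% overlap the antisense gene DDIT4-AS1, whose reads cannot be told apart from those of DDIT4 if strand was not used. SESN2, a sestrin that senses leucine and limits mTORC1, was at 17.6 to 22.4 CPM in shPUS1 and at 5.03 to 15.5 CPM in shControl, and its log2 fold change of 0.45 without shControl replicate 2 missed the threshold (adjusted p = 0.0545).

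**Figure D3:**
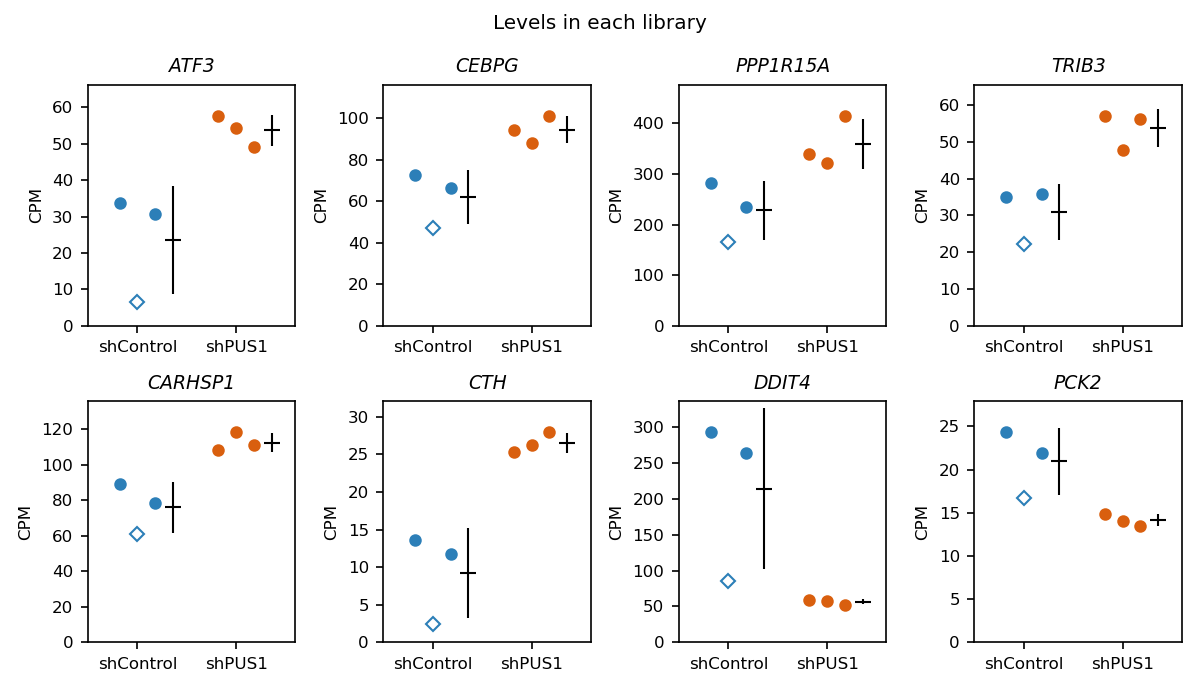
Level in CPM of the 8 genes called without shControl replicate 2, in each library. Filled circles are libraries, open diamonds are shControl replicate 2, and the black marks give the mean and SD of the 3 libraries of a group. In ATF3, CEBPG, PPP1R15A, TRIB3, CARHSP1 and CTH the open diamond is the lowest point, and in DDIT4 and PCK2 it lies between the other shControl and the shPUS1 libraries.

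CTH (ENSG00000116761, chr1:70411218-70439851), cystathionine gamma-lyase, makes cysteine from cystathionine and thereby feeds glutathione synthesis. It was at 13.6, 2.46 and 11.7 CPM in shControl and at 25.3, 26.3 and 27.9 CPM in shPUS1. The shPUS1 libraries lay close together and well above every control. The means were 26.5 ± 1.31 CPM in shPUS1 and 9.24 ± 5.95 CPM in shControl (n = 3 each, SD). This gave a log2 fold change of 1.52 (SE 0.50, adjusted p = 0.121). Without shControl replicate 2 CTH rose 2.07-fold (log2 1.05, SE 0.12, adjusted p = 0.00177), the widest called rise in the set.

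CBS, the enzyme just before CTH, had 0 counts in all 6 libraries, which allows up to 0.153 to 0.211 CPM per library. Since 50.26% of its 100-base transcript stretches also occur in its copy CBSL, also at 0, reads shared by the 2 copies may not have been counted, and the handling of such reads is not given in the sources used here. CHAC1 (ENSG00000128965, chr15:40952962-40956512) breaks down glutathione and is among the most inducible ATF4 and CHOP targets. It was at 7.53, 0.629 and 9.95 CPM in shControl and at 10.4, 9.96 and 12.7 CPM in shPUS1. The lowest shPUS1 library and the highest control library were nearly level, and replicate 2 of shControl rested on 12 counts. Its log2 fold change was 0.87 (SE 0.70, adjusted p = 0.456), and 0.32 without that library (95% interval −0.08 to 0.73, adjusted p = 0.227).

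The 5 enzymes grouped under amino acid synthesis include PCK2, which does not itself make an amino acid. None of the 5 was called higher with all libraries or without shControl replicate 2 (1.74% and 9.8% of all genes). Without that library 1, PCK2, was called lower (8.79% of all genes). ASNS (ENSG00000070669, chr7:97851677-97872542), asparagine synthetase and a standard ATF4 target, was at 56.1, 20.2 and 42.4 CPM in shControl and at 42.2, 34.9 and 51.2 CPM in shPUS1, so that the shPUS1 range fell inside that of shControl. Its log2 fold change was 0.11 (SE 0.34, adjusted p = 0.853) with all libraries and −0.21 without shControl replicate 2 (95% interval −0.61 to 0.19, adjusted p = 0.433), a change of sign with no call. Of its 100-base stretches 37.02% also occur in AC079781.5, which overlaps it on the same strand, so its counts are uncertain.

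PCK2 (ENSG00000100889, chr14:24094053-24110598), the mitochondrial phosphoenolpyruvate carboxykinase, was at 24.3, 16.7 and 21.9 CPM in shControl and at 14.9, 14.1 and 13.5 CPM in shPUS1. All shPUS1 libraries were below all shControl libraries. The log2 fold change was −0.56 (SE 0.18, adjusted p = 0.115), and PCK2 fell 1.63-fold without shControl replicate 2 (log2 −0.71, SE 0.11, adjusted p = 0.00576). ALDH18A1 and PYCR1, which make proline, and GPT2, which makes alanine from glutamate and pyruvate, had log2 fold changes of −0.17, 0.09 and −0.05 without that library, none of them called.

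In serine synthesis, PHGDH (ENSG00000092621), the first enzyme, was nearly silent. It was at 0.851, 0.0524 and 0.613 CPM in shControl and at 0.390, 0.657 and 0.767 CPM in shPUS1, which is 1 to 13 counts per library. Without shControl replicate 2 the 95% interval of its log2 fold change ran from −1.18 to 0.69. PSAT1 (ENSG00000135069, chr9:78297125-78330093), the second enzyme, was well expressed, at 78.9, 113 and 67.9 CPM in shControl and at 84.2, 74.0 and 83.9 CPM in shPUS1. Its highest library was shControl replicate 2, and its log2 fold change was −0.10 (SE 0.19, adjusted p = 0.766) and 0.13 without that library (95% interval −0.12 to 0.38, adjusted p = 0.442). PSPH, the last enzyme, had log2 fold changes of −0.04 and 0.00. Per length, PSAT1 stood at a mean of 37.8 FPKM over the 6 libraries, PSPH at 4.16 and PHGDH at 0.06.

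In the folate-linked one-carbon pathway, MTHFD2 (ENSG00000065911, chr2:74186172-74217565), the mitochondrial dehydrogenase and cyclohydrolase, was at 84.2, 62.6 and 77.3 CPM in shControl and at 73.7, 64.5 and 74.3 CPM in shPUS1. Its log2 fold change was −0.08 (SE 0.15, adjusted p = 0.767), and −0.20 without shControl replicate 2 (95% interval −0.44 to 0.04, adjusted p = 0.222). SHMT2, the mitochondrial serine hydroxymethyltransferase, was at 163 to 192 CPM in the 6 libraries, with a log2 fold change of 0.10 and a 95% interval of −0.11 to 0.31 without that library. Cytosolic SHMT1 and mitochondrial MTHFD1L were highest in shControl replicate 2, at 45.5 and 68.3 CPM, and their log2 fold changes without it were −0.04 and 0.15. ALDH1L2 had 4 to 19 counts per library. None of the 5 one-carbon enzymes and none of the 3 serine enzymes was called in either comparison. Of all genes, 2.58% were called in either direction with all libraries and 18.6% without shControl replicate 2. With so few enzymes, 0 called is not far from those shares.

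Of the secreted proteins, GDF15, a stress cytokine, was at 7.46, 0.734 and 8.38 CPM in shControl and at 9.57, 10.5 and 9.38 CPM in shPUS1. STC2, a glycoprotein of calcium and phosphate balance, was at 3.8, 0.629 and 4.84 CPM and at 6.51, 9.14 and 6.32 CPM. Neither overlapped between groups. Their log2 fold changes without shControl replicate 2 were 0.30 (SE 0.14, adjusted p = 0.17) and 0.74 (SE 0.22, adjusted p = 0.051), so that STC2 just missed the threshold. FGF21, the third, had 0 counts in every library.

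**Figure D4:**
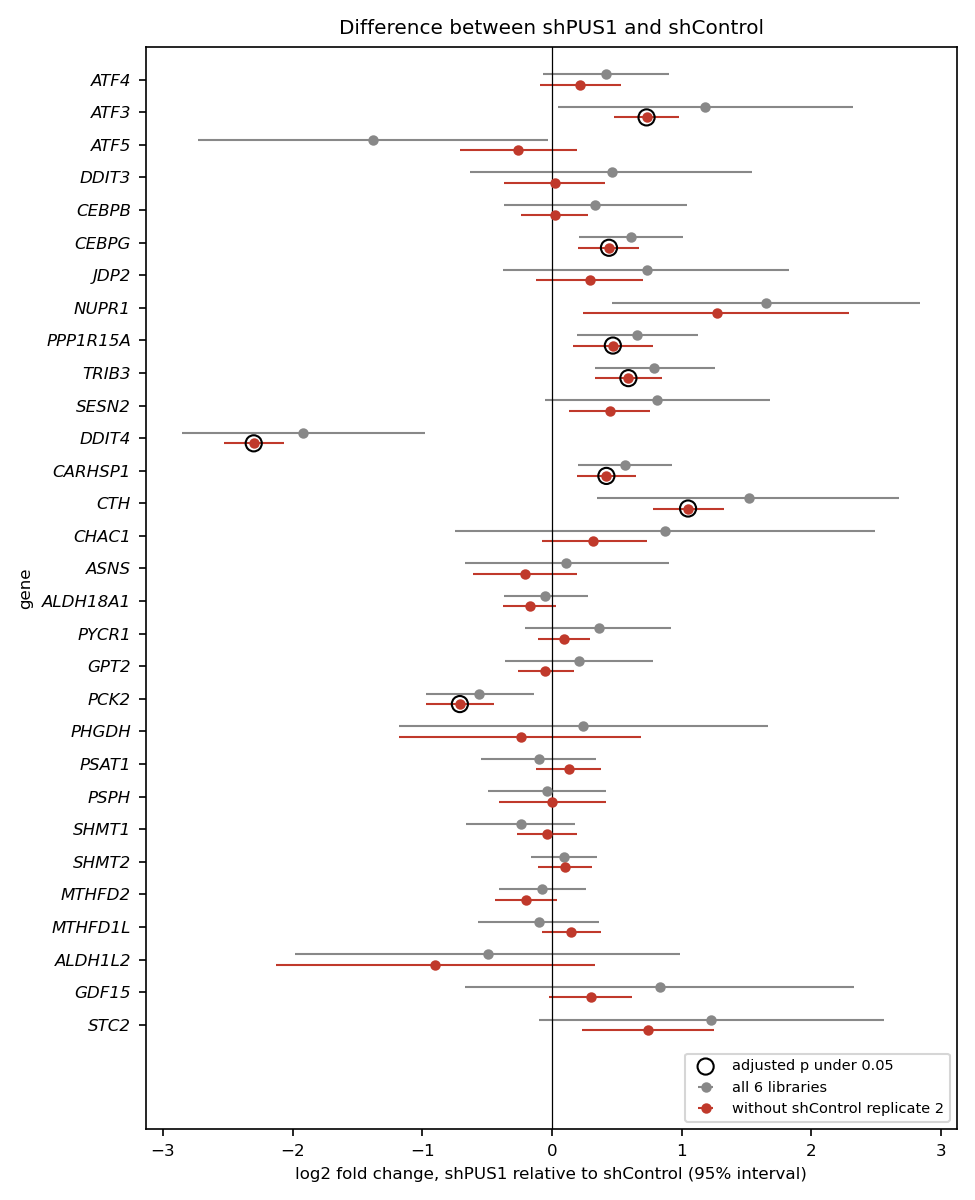
Log2 fold change of each of the 30 tested genes, shPUS1 relative to shControl, with its 95% interval, from all 6 libraries in grey and without shControl replicate 2 in red. Open black circles mark an adjusted p under 0.05. Many intervals are narrower and many estimates nearer to 0 without that library, whereas DDIT4 moves from −1.92 to −2.30.

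Set beside the promoter matches, the 7 tested genes whose window held TGATGNAA had a median log2 fold change of 0.32 without shControl replicate 2, with 3 called higher (ATF3, CEBPG and CARHSP1) and 0 lower, where 9.8% and 8.79% of all genes were. The 17 tested genes with a window but no match had a median of 0.02. Of these, 3 were called higher (CTH, PPP1R15A and TRIB3) and 2 lower (DDIT4 and PCK2), against the same 9.8% and 8.79%. These are counts and medians of few genes and carry no test. In shControl replicate 2, 6 of the 7 genes with a match were at their lowest of all libraries, as were 12 of the 17 without. Of all genes, 32.1% were lowest in that library.

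Upstream of ATF4, 9 genes of the eIF2 kinases and their regulators were tested. With all libraries 0 were called. At an unadjusted p under 0.05, 3 were higher and 1 lower, against 12.6% and 12.8% of all genes, and DESeq2 called those 4, against 7.37% and 5.64%. For the single lower gene of 9 the unadjusted share is close to that of all genes. The gene with the smallest p was DNAJC3, a co-chaperone and inhibitor of the kinase PERK, at 80.0, 96.2 and 85.0 CPM in shControl and at 123, 130 and 116 CPM in shPUS1 (log2 0.50, SE 0.12, adjusted p = 0.0672). It rose 1.49-fold without shControl replicate 2 (adjusted p = 0.00647). Next was IMPACT, an inhibitor of the kinase GCN2, at 26.0, 24.5 and 23.8 CPM in shControl and at 16.4, 17.3 and 18.2 CPM in shPUS1 (log2 −0.51, SE 0.13, adjusted p = 0.0785). It fell 1.44-fold without that library (adjusted p = 0.0141).

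The kinases called without shControl replicate 2, named after their values were seen, were EIF2AK3, which is PERK itself, and EIF2AK4, which is GCN2. EIF2AK3 was at 81.9, 34.1 and 83.7 CPM in shControl and at 148, 151 and 148 CPM in shPUS1, and rose 1.79-fold without that library (log2 0.84, SE 0.09, adjusted p = 0.00113). EIF2AK4 was at 110, 125 and 119 CPM in shControl and at 168, 156 and 151 CPM in shPUS1, and rose 1.38-fold (log2 0.46, SE 0.09, adjusted p = 0.0141). For EIF2AK3 shControl replicate 2 was the lowest library, whereas for EIF2AK4 it was the highest control. The heme-regulated kinase EIF2AK1 and the RNA-activated kinase EIF2AK2, both named after their values were seen, had log2 fold changes of 0.06 and 0.18 and were not called.

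The next list held 14 genes, subunits of eIF2, of its exchange factor eIF2B and of its phosphatases together with the separate initiation factors EIF2A and EIF2D. With all libraries 0 were called, 1 was higher and 4 lower at an unadjusted p under 0.05 (12.6% and 12.8% of all genes) and DESeq2 called 1 higher and 1 lower (7.37% and 5.64%). Without shControl replicate 2, PPP1R15B rose and 2 genes fell, where 9.8% and 8.79% of all genes did. PPP1R15B, the constitutive counterpart of PPP1R15A, was at 180, 112 and 195 CPM in shControl and at 261, 266 and 249 CPM in shPUS1, a 1.37-fold rise without that library (adjusted p = 0.012, against 0.101 with all). PPP1CC, a catalytic subunit that PPP1R15A and PPP1R15B can recruit, was at 579, 534 and 455 CPM in shControl and at 378, 364 and 396 CPM in shPUS1, a 1.37-fold fall (adjusted p = 0.0299, against 0.0851). EIF2B1, a regulatory subunit of eIF2B named after its values were seen, fell 1.29-fold without that library (adjusted p = 0.0364, against 0.131 with all).

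None of a further 12 genes known as ATF4 or CHOP targets was called higher. Of all genes, 1.74% were with all libraries and 9.8% without shControl replicate 2, so 0 of so few is not far from those shares. Without that library 3 were called lower (ERO1A, TNFRSF10B and VLDLR), where 8.79% of all genes were. With all libraries 0 were called in either direction, 2 were higher and 1 lower at an unadjusted p under 0.05 (12.6% and 12.8% of all genes) and DESeq2 called 1 lower (5.64%). Their median log2 fold change was 0.06, and 0.04 without shControl replicate 2. ERO1A, an oxidase that drives disulfide formation in the endoplasmic reticulum, was at 419, 347 and 465 CPM in shControl and at 287, 285 and 280 CPM in shPUS1, and fell 1.56-fold without that library (log2 −0.64, SE 0.09, adjusted p = 0.00329). SQSTM1, the autophagy receptor p62, was at 522, 345 and 466 CPM in shControl and at 619, 599 and 618 CPM in shPUS1 and missed the threshold (log2 0.30, adjusted p = 0.0506). The death receptor TNFRSF10B and the lipoprotein receptor VLDLR, named after their values were seen, also fell without that library. Their log2 fold changes were −0.47 (adjusted p = 0.0208) and −0.49 (adjusted p = 0.0119). With all libraries these were −0.29 (adjusted p = 0.355) and −0.10 (adjusted p = 0.889). In shControl replicate 2 VLDLR was at 9.12 CPM, below the 21.0 to 21.1 CPM of the shPUS1 libraries.

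Among enzymes next to these genes in metabolism, GCLC and TYMS are given here, both named after their values were seen. GCLC, the catalytic subunit of the enzyme that begins glutathione synthesis, was at 35.3, 35.4 and 31.7 CPM in shControl and at 42.3, 45.9 and 46.5 CPM in shPUS1. The groups did not overlap, and GCLC rose 1.33-fold without shControl replicate 2 (log2 0.42, SE 0.10, adjusted p = 0.0272, against 0.109 with all libraries). TYMS, thymidylate synthase, was at 162, 167 and 169 CPM in shPUS1, below every control, and fell 1.44-fold without that library (log2 −0.52, SE 0.10, adjusted p = 0.012, against 0.101).

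**Figure D5:**
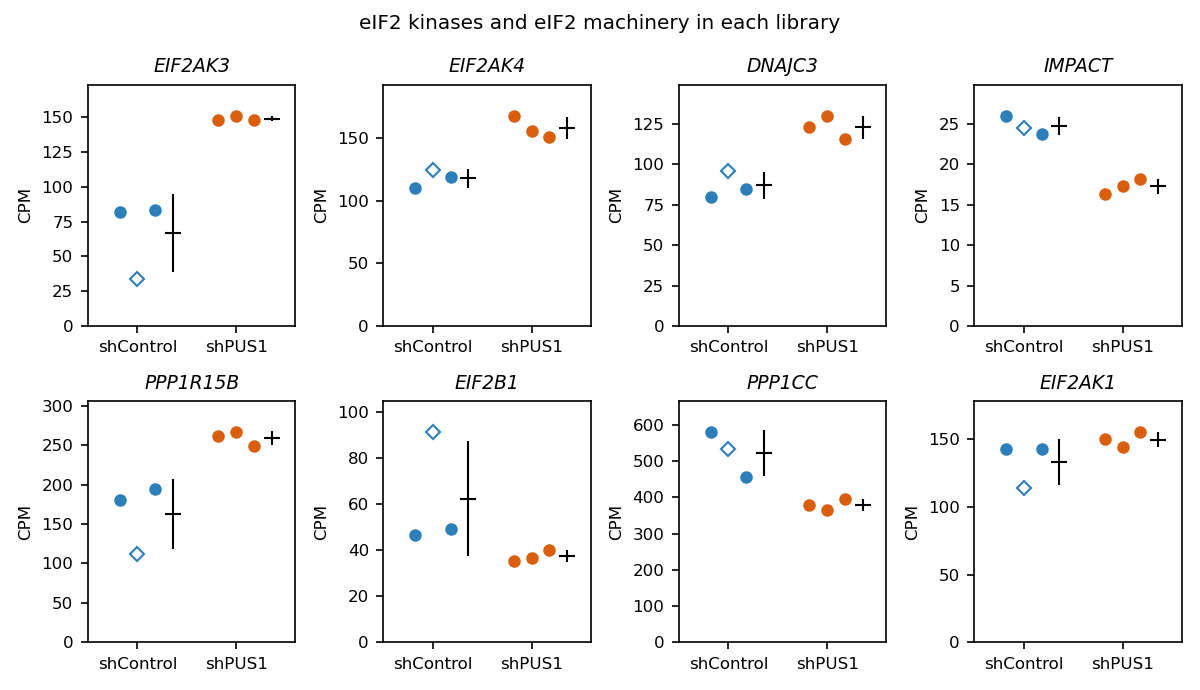
Level in CPM of 8 genes upstream of ATF4, in each library, with symbols as in the plot of the called genes: open diamonds are shControl replicate 2 and black marks give the mean and SD of 3 libraries. All but EIF2AK1 were picked from lists of 9 and 14 genes because edgeR called them without shControl replicate 2. With all 6 libraries edgeR called 0 genes of either list. EIF2AK3, EIF2AK4, DNAJC3 and PPP1R15B are clearly higher in every shPUS1 library, IMPACT, EIF2B1 and PPP1CC are lower, and EIF2AK1, which was not called, lies close to the controls.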

How the data were processed

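Poly(A) RNA libraries of 3 shControl and 3 shPUS1 samples were used. The authors aligned reads with HISAT2 and counted with HTSeq 0.6.1, per the submitters' processing notes. The authors deposited an estimated count per gene and library without normalization, and 29.76% to 31.79% of those above 0 were not whole numbers. The deposited FPKM were made from these counts by the authors. Genome build, annotation, strandedness and treatment of multi-mapping reads are not given in the sources used here. The coordinates listed for all 32 genes overlap those of GENCODE release 29 (GRCh38) on the same strand.

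Counts were rounded, filtered with filterByExpr, scaled by TMM (factors 0.973 to 1.032) and tested with edgeR 4.0.16 in R 4.3.3 (quasi-likelihood, prior count 2, design of group only), with Benjamini-Hochberg adjustment over all genes. Limits for a count of 0 use 3 counts and cover counting error only. Alternatives used DESeq2 1.42.0 and limma 3.58.1. Shared stretches were 100 bases of GENCODE transcripts. The scripts were tested on simulated data.

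The genes, lists and alternatives were chosen with earlier results of these data known. Values in every library are given for genes called with or without shControl replicate 2 and for ATF4, DDIT3, ATF3, ASNS, TRIB3, CHAC1, PSAT1, PHGDH and MTHFD2. From each further list the genes called with all libraries, or otherwise those 2 with the smallest unadjusted p, are named. A few genes of 1 further list, and its counts, are not reported here.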

Additional observations from a re-analysis of the deposited data

How the results depend on the processing

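With all 6 libraries, 380 genes and 0 of the 30 stress response genes were called. The count of stress response genes stayed at 0 in both directions with DESeq2 size factors in edgeR (384 genes called), library totals alone (296), limma on log2(FPKM + 1) (388) and on log2(FPKM + 0.1) (250), and a fold of at least 2 as well (200). Other settings moved it: without a filter on low counts 5 were higher and 1 lower (1284 genes called), the DESeq2 Wald test gave 5 and 1 (1730 genes), voom with sample weights, which gave shControl replicate 2 a weight of 0.1012, gave 6 and 2 (3090 genes), and DESeq2 without shControl replicate 2, chosen after seeing the data, gave 6 and 2 (2802 genes). The cause was not tested. Leaving out 1 library at a time gave 0 to 2813 genes, 0 to 6 stress response genes higher and 0 to 2 lower. The highest of these came without shControl replicate 2. Without shControl replicate 1, shControl replicate 3, shPUS1 replicate 1, shPUS1 replicate 2 or shPUS1 replicate 3, 0 stress response genes were called, with 11, 474, 11, 6 and 0 genes called in all. Same-numbered libraries did not deviate together (correlations −0.053, −0.026 and −0.19). With so few libraries, and 1 control apart from the rest, these values cannot settle whether the numbers pair them. The labels do not say. A replicate block left 18 genes and 0 stress response genes called.

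Directions changed only among genes that were never called. With voom weights ASNS was at −0.21, PHGDH −0.36, PSAT1 0.09 and MTHFD1L 0.08. With DESeq2 without shControl replicate 2, ASNS was at −0.19, GPT2 −0.03, PSAT1 0.15, PSPH 0.02 and MTHFD1L 0.16. Over single libraries left out, log2 fold changes ran from −0.21 to 0.45 for ASNS, −0.17 to 0.05 for ALDH18A1, −0.05 to 0.38 for GPT2, −0.24 to 0.74 for PHGDH, −0.26 to 0.13 for PSAT1, −0.19 to 0.07 for PSPH, −0.20 to 0.02 for MTHFD2, −0.26 to 0.15 for MTHFD1L and −1.13 to 0.11 for ALDH1L2. Few counts limit NUPR1, PHGDH and ALDH1L2.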

Other observations

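The bZIP factors that pair with or resemble ATF4 were not part of the comparisons above. Of 14 such genes 12 were tested, and with all 6 libraries edgeR called 0, with 5 higher and 0 lower at an unadjusted p under 0.05 (12.6% and 12.8% of all genes), while DESeq2 called 2 higher (7.37%). JUND, a subunit of AP-1, was at 119, 61.9 and 117 CPM in shControl and at 206, 209 and 238 CPM in shPUS1 (log2 1.13, SE 0.24, adjusted p = 0.0529), and rose 1.84-fold without shControl replicate 2 (adjusted p = 0.0019). CREB1, the cAMP response factor, was at 83.5, 78.5 and 95.5 CPM in shControl and at 112, 120 and 118 CPM in shPUS1 (log2 0.44, SE 0.12, adjusted p = 0.0841), and rose 1.30-fold without that library (adjusted p = 0.0308). CEBPD, named after its values were seen, was at 28.1, 15.0 and 32.9 CPM in shControl and at 17.9, 22.4 and 19.7 CPM in shPUS1. It fell 1.53-fold without that library (adjusted p = 0.0141, against 0.46 with all libraries), opposite in sign to its relative CEBPG.

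The cAMP response element TGACGTCA, which ATF and CREB proteins can bind and which is not a form of TGATGNAA, was found in the window of 1 of the 26 genes with a promoter window (3.85%, against 2.25% of all genes). It is shown because it is the single match in the set, that of PPP1R15A at chr19:48872352-48872381 of GRCh38.p14, plus strand, 58 bases before the RefSeq start:
PPP1R15A: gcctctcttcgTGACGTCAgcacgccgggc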
